A study of Rattus norvegicus with 12 samples.

Results

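The BCL2 family of apoptosis regulators was followed through the 10 members Bcl2, Bcl2l1, Mcl1, Bcl2l11, Bbc3, Pmaip1, Bad, Bax, Bak1 and Bid. Probe sets were assigned to members by gene symbol in the annotation of the array, a rule that uses no measured level. The list itself was drawn up with earlier results of these data known. Each of the 10 symbols was carried by a single probe set of the 23188 on the array. ELT3 is a Tsc2-null cell line from a uterine leiomyoma of an Eker rat, and ELT3-245 is a rapamycin-resistant line grown from an ELT3 tumour of a CB17/SCID mouse that kept growing under the drug. The 4 groups were ELT3 in DMSO, ELT3 in 20 nM rapamycin, ELT3-245 in DMSO and ELT3-245 in 20 nM rapamycin, each treated for 24 hours and each with 3 arrays, so that all groups shared the loss of tuberin. The labels and the design text agree on 20 nM, although the stock and volumes given with the samples would yield a far higher concentration.

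BCL2 proteins decide whether the outer membrane of the mitochondrion stays closed. The survival proteins BCL2, BCL-XL (Bcl2l1) and MCL1 hold back the pore-forming effectors BAX and BAK, and the BH3-only proteins BIM (Bcl2l11), PUMA (Bbc3), NOXA (Pmaip1), BAD and BID either block the survival proteins or act on the effectors. Once the membrane opens, cytochrome c reaches the cytosol and caspases are switched on. Much of this control runs through protein turnover, phosphorylation and cleavage, which arrays do not measure, and several members have splice forms that a single probe set cannot separate. The study examined death of cells after detachment, a question these genes bear on. The arrays came from cultures with DMSO or rapamycin, none labelled as detached, so they do not measure that death. After detachment, the paper reported a smaller share of dead cells in the resistant line at early times, a gap that was diminished later. Its immunoblots of detached cells unexpectedly showed more BIM and more of a cleaved caspase in the resistant line.

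Values are log2 signals, on which a difference of 1 is a doubling. A member was called changed at an adjusted p under 0.05 (limma, Benjamini-Hochberg over all 23188 probe sets) together with a change of at least 1.5-fold, or 0.585 on the log2 scale. The array medians lay between 6.69 and 6.82, and the correlation between arrays of 1 group, taken over probe sets (no independent replicates), was 0.9928 to 0.9966. No array was left out. The labels describe plates grown in triplicate and no repeat of the experiment on another day, so the p-values weigh a difference only against the spread between these samples. Only 1 resistant line was studied. Of 7 smooth muscle markers, 4 or 5 lay above the median of every array in each group, with Acta2 at 14.43 to 16.66 and Des at 15.70 to 16.73 as group means, while Myh11 stayed at 4.49 to 4.91. Tsc2 gave group means of 9.54 to 10.57, a probe set whose place relative to the Eker mutation is not given. In RNA from whole cultures, fewer cells of a type and less RNA per cell cannot be told apart.

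Between the lines, 3 of the 10 members were called and 7 were not. Bcl2 and Pmaip1 were lower in ELT3-245, Bcl2l11 was higher, and these same 3 members were called in DMSO and in rapamycin. In each treatment, 1 of 10 members was called higher and 2 lower in ELT3-245. Over all probe sets 14.9% were called in DMSO (7.3% higher and 7.56% lower) and 16.8% in rapamycin (8.86% higher and 7.92% lower). By the adjusted p alone 5 members passed in DMSO and 4 in rapamycin, against 21.7% and 24.7% of all probe sets. The median log2 difference of the members was -0.08 in DMSO and -0.06 in rapamycin, against 0.01 and -0.02 over all probe sets. The arrays of the lines did not overlap for 6 members in DMSO and for 5 in rapamycin, where 36.8% and 37.7% of all probe sets had that property.

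**Figure D1:**
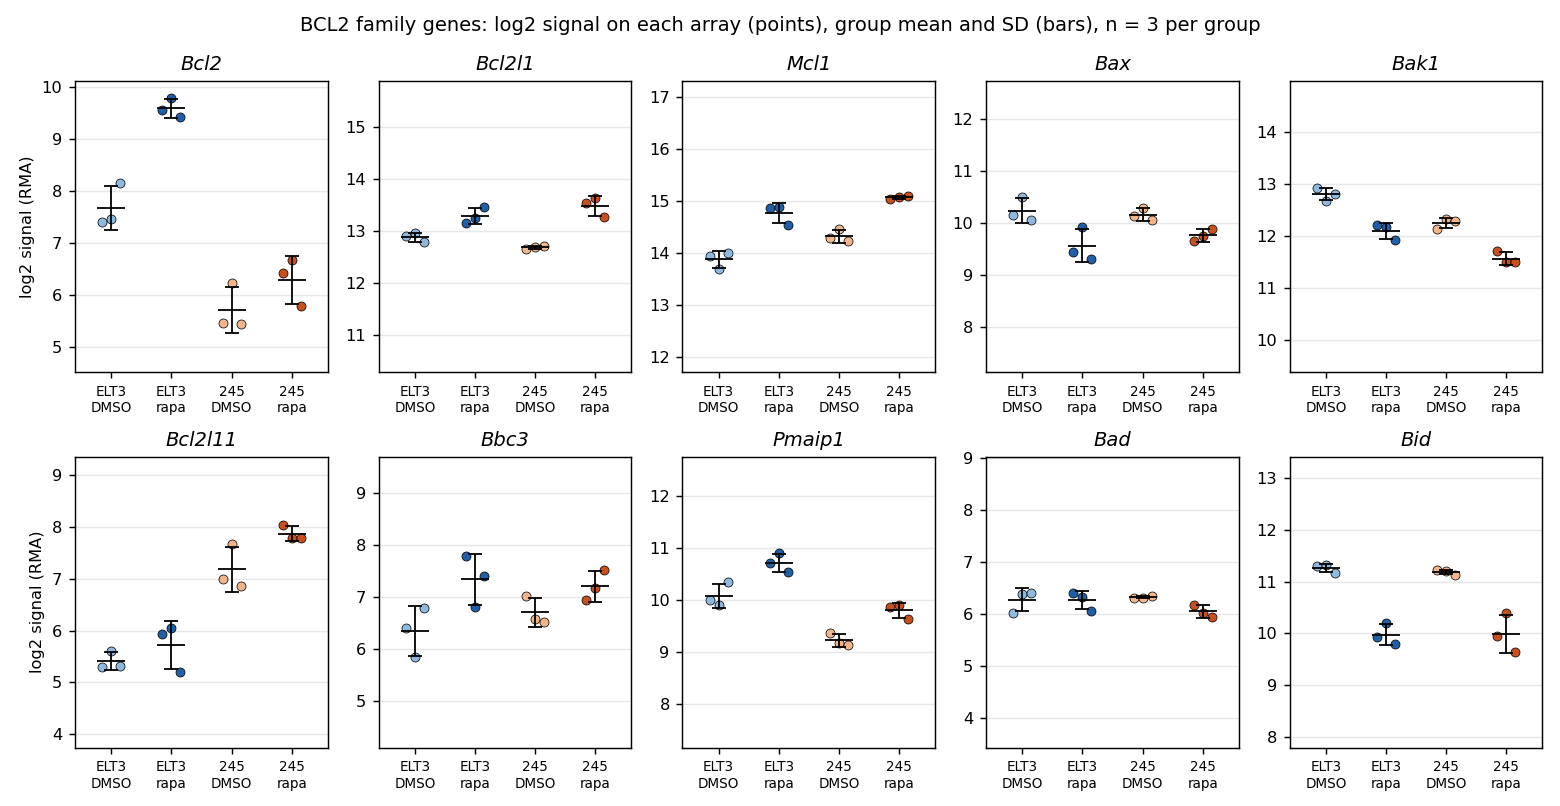
Log2 signal (vertical axis, the same span of 5.6 log2 units in every panel) of the 10 members on each of the 12 arrays, by group (horizontal axis; rapa is rapamycin and 245 is ELT3-245). Points are arrays and bars the group mean and SD (n = 3). Bcl2 was highest in rapamycin-treated ELT3 (mean 9.59) and Bcl2l11 in ELT3-245 (7.18 in DMSO and 7.87 in rapamycin), while Bid and Bak1 lay lower with rapamycin in both lines.

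Bcl2 (chromosome 13), the founding survival gene of the family, had the widest range of the members, with 3.88 log2 units between its highest and lowest group. In DMSO its signal was 7.41, 7.45 and 8.15 on the ELT3 arrays and 5.45, 6.23 and 5.44 on the ELT3-245 arrays. In rapamycin it was 9.56, 9.79 and 9.42 in ELT3 and 6.42, 6.66 and 5.78 in ELT3-245. Every ELT3-245 array thus lay below every ELT3 array, and all ELT3-245 arrays gave Bcl2 a signal below the array medians. The line difference was -1.96 in DMSO (standard error 0.28, adjusted p = 0.0002), a signal 3.90-fold lower. In rapamycin it was -3.30 (standard error 0.28, adjusted p = 1.93e-06), a signal 9.88-fold lower. The order of the groups was rapamycin-treated ELT3, DMSO-treated ELT3, rapamycin-treated ELT3-245 and DMSO-treated ELT3-245, and only the last pair overlapped. The difference in DMSO did not pass when the spread of the probe set alone was used (unequal-variance test, adjusted p = 0.0537).

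The other survival genes stood far above the array medians and differed little between the lines. Mcl1 (chromosome 2), a short-lived survival protein, was at 13.93, 13.69 and 14.00 in ELT3 and 14.28, 14.45 and 14.22 in ELT3-245 in DMSO. The arrays did not overlap, and the difference of 0.44 (adjusted p = 0.0263) passed the test but lay under 1.5-fold. In rapamycin the difference of Mcl1 was 0.30 (95% confidence interval 0.02 to 0.58, adjusted p = 0.115). Bcl2l1 (chromosome 3) differed by -0.19 in DMSO (95% confidence interval -0.46 to 0.07) and by 0.19 in rapamycin (-0.07 to 0.46), and neither passed the test.

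Bcl2l11 (chromosome 3) encodes BIM, a BH3-only protein that binds all the main survival proteins. In DMSO its signal was 5.29, 5.61 and 5.32 in ELT3 and 7.00, 7.67 and 6.86 in ELT3-245. In rapamycin it was 5.93, 6.05 and 5.19 in ELT3 and 8.03, 7.78 and 7.79 in ELT3-245. No array of ELT3 reached the ELT3-245 range, and all ELT3 arrays lay below the array medians. ELT3-245 was higher by 1.77 in DMSO (3.42-fold, standard error 0.24, adjusted p = 0.000147). In rapamycin it was higher by 2.14 (4.41-fold, standard error 0.24, adjusted p = 2.71e-05). The arrays of the ELT3-245 groups stood apart by treatment and those of the ELT3 groups overlapped. With the spread of the probe set alone, the line difference had an adjusted p of 0.0787 in DMSO and 0.0779 in rapamycin.

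Pmaip1 (chromosome 18), which encodes NOXA, a BH3-only protein that acts mainly on MCL1, ran the other way. Its signal in DMSO was 10.00, 9.90 and 10.34 in ELT3 and 9.37, 9.17 and 9.14 in ELT3-245. In rapamycin it was 10.71, 10.90 and 10.55 in ELT3 and 9.87, 9.90 and 9.64 in ELT3-245. ELT3-245 lay below ELT3 on every array within each treatment. The difference of Pmaip1 was -0.86 in DMSO (standard error 0.14, adjusted p = 0.000805), a signal 1.81-fold lower. With rapamycin it was -0.91 (adjusted p = 0.000433), or 1.88-fold lower. Rapamycin-treated ELT3 was highest and DMSO-treated ELT3-245 lowest, while the middle groups, DMSO-treated ELT3 and rapamycin-treated ELT3-245, met at 9.90. With the spread of the probe set alone the DMSO difference had an adjusted p of 0.0764, and tested against a 1.5-fold change (limma treat) it had an adjusted p of 0.483 in DMSO and 0.245 in rapamycin.

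Upstream sequence was read for the members with RefSeq windows, which 8 of 10 genes had (11 windows, build GRCr8). Motifs were searched on both strands in the 250 bases before each annotated start. They were the forkhead motif GTAAACA, read by FOXO factors, the CRE core TGACGT, read by CREB and ATF factors, and the GC box GGGGCGGGG, read by SP factors, none of which overlapped another in these windows. The forkhead motif was found for Bcl2l11 and Bad, and in 3.21% of all 33469 windows. The CRE core was found for Pmaip1 (6.95% of all windows) and the GC box for Pmaip1 and Bid (9.0%). The stretches below are shown because Bcl2l11 and Pmaip1 separated the lines, and Bad, which carries the same forkhead letters as Bcl2l11, did not. Capitals mark the motifs, on either strand.
Bcl2l11 (chr3:135819792-135820041, plus strand, 250 bases before the start): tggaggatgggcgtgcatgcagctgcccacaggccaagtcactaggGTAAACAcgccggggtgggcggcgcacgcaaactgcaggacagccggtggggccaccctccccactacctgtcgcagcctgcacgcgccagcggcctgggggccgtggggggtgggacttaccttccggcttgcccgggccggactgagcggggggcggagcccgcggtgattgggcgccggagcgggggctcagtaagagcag
Bad (chr1:213562957-213563036, plus strand, part of the window): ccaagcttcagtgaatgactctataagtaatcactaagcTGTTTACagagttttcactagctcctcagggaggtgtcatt
Pmaip1 (chr18:62255870-62255969, plus strand, 100 bases before the start): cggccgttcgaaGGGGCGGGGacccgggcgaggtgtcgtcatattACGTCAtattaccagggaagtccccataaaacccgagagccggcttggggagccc

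The forkhead letters lay 204 to 198 bases before the start of Bcl2l11 and 118 to 112 bases before that of Bad. Bcl2l11 was higher in ELT3-245 by 1.77 in DMSO, where the difference of Bad, whose signal lay below the median on every array, was 0.05. In Pmaip1 the GC box lay 88 to 80 bases and the CRE core 55 to 50 bases before the start. The match of letters is a description of these windows and no measure of binding. The part of these motifs in the levels of the genes was not tested.

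The effector Bak1 (chromosome 20) was lower in ELT3-245 with no overlap of arrays. Its signal in DMSO was 12.92, 12.68 and 12.81 in ELT3 and 12.14, 12.32 and 12.29 in ELT3-245. The differences of -0.56 in DMSO (adjusted p = 0.00465) and -0.54 in rapamycin (adjusted p = 0.00497) passed the test but fell just short of 1.5-fold, and Pmaip1 in DMSO was the called member nearest to that threshold. Without ELT3 DMSO replicate 2 the DMSO difference of Bak1 was -0.62, past 1.5-fold, and without ELT3-245 DMSO replicate 2 it was -0.59. In rapamycin the difference of Bak1 was -0.63 without ELT3 rapamycin replicate 3 and -0.61 without ELT3-245 rapamycin replicate 1. Bax (chromosome 1) overlapped between the lines in each treatment, with differences of -0.08 (95% confidence interval -0.45 to 0.29) and 0.20 (-0.17 to 0.57).

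The remaining BH3-only genes did not separate the lines. For Bid, whose product links death receptors to mitochondria, the difference was -0.07 in DMSO (95% confidence interval -0.44 to 0.29) and 0.02 in rapamycin (-0.35 to 0.38). For Bad, which growth factor kinases hold inactive by phosphorylation, it was 0.05 (-0.24 to 0.34) and -0.22 (-0.51 to 0.08). For Bbc3, a p53 target, it was 0.35 (-0.26 to 0.96) and -0.13 (-0.74 to 0.48). The intervals of Bbc3 reached past 1.5-fold, whereas those of Bad and Bid did not. For Bbc3 a difference of that size was thus not excluded with 3 arrays a group.

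**Figure D2:**
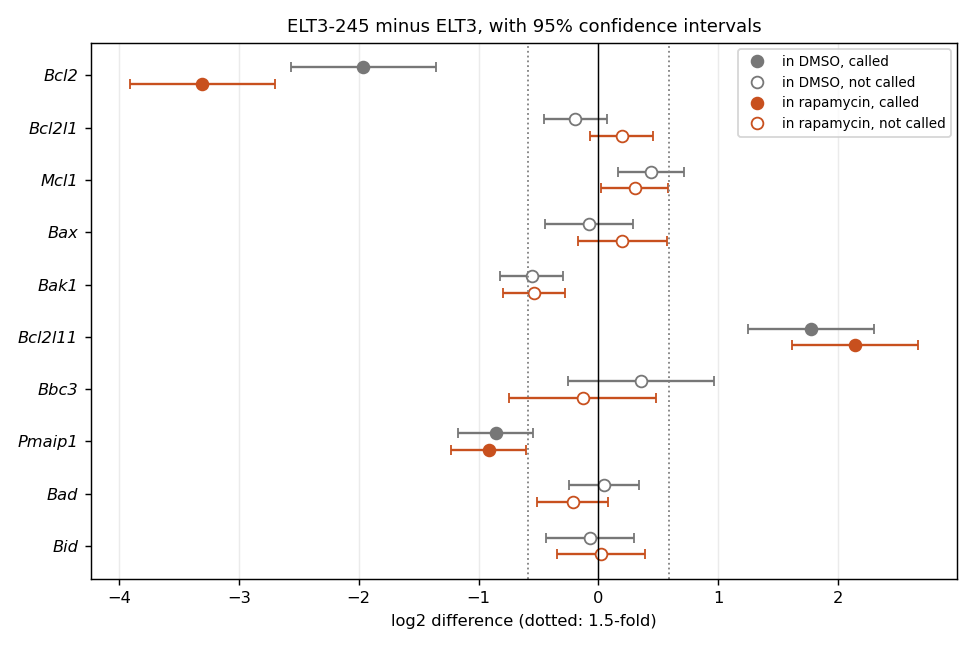
Log2 difference between the lines, ELT3-245 minus ELT3 (horizontal axis), for each member (vertical axis), in DMSO (grey) and in rapamycin (orange), with 95% confidence intervals from limma. Filled points were called and dotted lines mark 1.5-fold. Bcl2 lay at -1.96 and -3.30, Pmaip1 at -0.86 and -0.91, and Bcl2l11 at 1.77 and 2.14.

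Rapamycin changed 7 members in ELT3 and 4 in ELT3-245. In ELT3, 4 of 10 members rose (Bcl2, Mcl1, Bbc3 and Pmaip1), 3 fell (Bax, Bak1 and Bid) and 3 were not called. Over all probe sets 15.9% were called in this comparison (7.47% higher and 8.45% lower). In ELT3-245, 2 members rose (Bcl2l1 and Mcl1), 2 fell (Bak1 and Bid) and 6 were not called, where 10.6% of all probe sets were called (5.65% higher and 4.98% lower). By the adjusted p alone 8 members passed in ELT3 and 5 in ELT3-245, against 25.3% and 18% of all probe sets. The median log2 difference of the members was 0.36 in ELT3 and 0.54 in ELT3-245, against 0.02 and -0.02 over all probe sets. Arrays with and without the drug did not overlap for 8 members in each line, against 37.7% of all probe sets in ELT3 and 34.9% in ELT3-245. With the spread of each probe set alone (unequal-variance test), 1 member was called in each line, Bid in ELT3 and Bak1 in ELT3-245, and tested against a 1.5-fold change (limma treat) 2 were called in ELT3, Bcl2 and Bid, and 0 in ELT3-245. The ELT3 and ELT3-245 comparisons share no arrays. The sign of the difference was the same in both lines for 10 of 10 members and for 63.1% of all probe sets. For Bad that sign rested on a difference of -0.01 in ELT3, which was 0.06 with array weights. Mcl1, Bak1 and Bid were called in both lines with the same sign. These are 42.9% of the members called in ELT3 and 75% of those called in ELT3-245, while over all probe sets the shares were 38.4% and 57.6%.

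Of the effectors, Bak1 fell with rapamycin in both lines and Bax in ELT3. Bak1 went from 12.92, 12.68 and 12.81 in DMSO to 12.21, 12.17 and 11.93 in rapamycin in ELT3. In ELT3-245 it went from 12.14, 12.32 and 12.29 to 11.70, 11.49 and 11.50. The arrays of each line stood apart, and the changes of -0.70 in ELT3 (standard error 0.12, 1.63-fold, adjusted p = 0.000896) and -0.69 in ELT3-245 (1.61-fold, adjusted p = 0.00172) were nearly equal. Bak1 was thus highest in DMSO-treated ELT3 and lowest in rapamycin-treated ELT3-245, and the middle groups, rapamycin-treated ELT3 and DMSO-treated ELT3-245, overlapped. Bax was at 10.15, 10.51 and 10.07 in DMSO-treated ELT3 and at 9.45, 9.93 and 9.32 with rapamycin. This fall by 0.68 (adjusted p = 0.0106) was under 1.5-fold without ELT3 DMSO replicate 2 (-0.54) or ELT3 rapamycin replicate 3 (-0.55). In ELT3-245 the difference of Bax was -0.40 (95% confidence interval -0.77 to -0.03, adjusted p = 0.141).

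Bid (chromosome 4) had the largest fall of the members in both lines. Its signal was 11.30, 11.31 and 11.16 in DMSO-treated ELT3 and 9.92, 10.20 and 9.80 after rapamycin. In ELT3-245 it was 11.21, 11.20 and 11.13 in DMSO and 9.94, 10.38 and 9.65 after rapamycin. The lines overlapped in each treatment and the treatments did not overlap in either line. The change was -1.28 in ELT3 (standard error 0.17, 2.43-fold lower, adjusted p = 0.000143) and -1.19 in ELT3-245 (standard error 0.17, 2.28-fold lower, adjusted p = 0.000413). In ELT3-245, tested against a 1.5-fold change (limma treat), Bid had an adjusted p of 0.0771.

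Of the survival genes, Mcl1 rose with rapamycin in both lines, Bcl2 in ELT3 and Bcl2l1 in ELT3-245. Mcl1 rose from 13.93, 13.69 and 14.00 to 14.86, 14.88 and 14.54 in ELT3. In ELT3-245 it rose from 14.28, 14.45 and 14.22 to 15.03, 15.07 and 15.09, which were the highest values of Mcl1 on any array. The change was 0.89 in ELT3 (standard error 0.13, 1.85-fold, adjusted p = 0.000271) and 0.75 in ELT3-245 (1.68-fold, adjusted p = 0.00149). Bcl2l1 encodes BCL-XL, a long-lived survival protein. It rose in ELT3-245 from 12.66, 12.69 and 12.72 to 13.53, 13.64 and 13.28, by 0.79 (standard error 0.12, 1.73-fold, adjusted p = 0.000716). In ELT3 the change of Bcl2l1 was 0.41, from a range of 12.79 to 12.96 to a range of 13.16 to 13.46, which passed the test (adjusted p = 0.0274) but not 1.5-fold. Bcl2 rose in ELT3 by 1.92 (standard error 0.28, 3.78-fold, adjusted p = 0.000281). In ELT3-245 the arrays with and without the drug overlapped, and the difference of Bcl2 was 0.58 (95% confidence interval -0.02 to 1.18, adjusted p = 0.195).

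Among the BH3-only genes, Pmaip1 rose in ELT3 by 0.64 (1.55-fold, adjusted p = 0.00585). In ELT3-245 the difference of Pmaip1 was 0.58 (adjusted p = 0.0143), just under 1.5-fold, and the arrays did not overlap in either line. The ELT3 call of Pmaip1 ended without ELT3 DMSO replicate 2 or ELT3 rapamycin replicate 2, where the change was 0.55 in each case, and after median centring (0.57). In ELT3-245 the change of Pmaip1 exceeded 1.5-fold without DMSO replicate 1 (0.65) or rapamycin replicate 3 (0.66).

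Bbc3 (chromosome 1) was at 6.40, 5.84 and 6.80 in DMSO-treated ELT3 and at 7.79, 6.81 and 7.40 after rapamycin. The groups of Bbc3 did not overlap, but the highest DMSO array (6.80) lay next to the lowest rapamycin array (6.81), both near the array medians. Its change of 0.99 (standard error 0.28, 1.99-fold, adjusted p = 0.0207) no longer passed without ELT3 DMSO replicate 2 (0.74, adjusted p = 0.089), ELT3 rapamycin replicate 1 (0.76, adjusted p = 0.0842) or ELT3 rapamycin replicate 3 (0.96, adjusted p = 0.0577). In ELT3-245 the difference of Bbc3 was 0.51 (95% confidence interval -0.10 to 1.12).

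Bcl2l11 differed with rapamycin by 0.32 in ELT3 (95% confidence interval -0.21 to 0.84) and by 0.69 in ELT3-245 (0.16 to 1.21, adjusted p = 0.072). The ELT3-245 arrays of Bcl2l11 did not overlap, at 6.86 to 7.67 in DMSO and 7.78 to 8.03 in rapamycin. The difference passed without ELT3-245 DMSO replicate 2 (0.93, adjusted p = 0.0185) or ELT3 rapamycin replicate 3 (0.69, adjusted p = 0.0279), with array weights (0.71, adjusted p = 0.0288), with an intensity trend and robust moderation (0.69, adjusted p = 0.0429) and with the replicate number as a block (0.69, adjusted p = 0.0356). Bad had the narrowest range of the members, 0.27 between its highest and lowest group mean, at a signal of 5.95 to 6.41, below the median of every array. Its difference was -0.01 in ELT3 (-0.30 to 0.29) and -0.27 in ELT3-245 (-0.57 to 0.02).

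**Figure D3:**
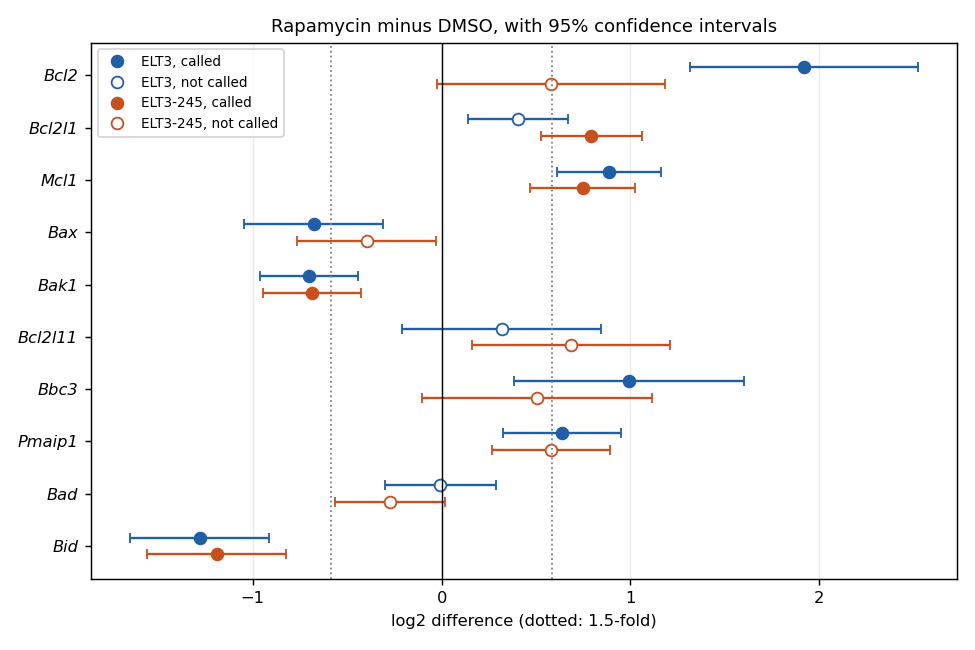
Log2 difference between rapamycin and DMSO (horizontal axis) for each member (vertical axis) in ELT3 (blue) and ELT3-245 (orange), with 95% confidence intervals from limma. Filled points were called and dotted lines mark 1.5-fold. Bid (-1.28 and -1.19), Bak1 (-0.70 and -0.69) and Mcl1 (0.89 and 0.75) were called in both lines, and Bcl2 (1.92 and 0.58) in ELT3.

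Whether the lines responded differently was tested as the interaction of line and treatment. None of the 10 members passed in limma, where 4.23% of all probe sets were called (2.17% higher and 2.06% lower) and 4.35% passed by the adjusted p alone. Of the members, 2 had an unadjusted p under 0.05. For Bcl2 the log2 response in ELT3-245 minus that in ELT3 was -1.34 (standard error 0.39, 95% confidence interval -2.19 to -0.49, unadjusted p = 0.00501, adjusted p = 0.0804). For Bcl2l1 it was 0.39 (95% confidence interval 0.01 to 0.76, unadjusted p = 0.0442, adjusted p = 0.25). The interaction of Bcl2 passed with an intensity trend and robust moderation in limma (adjusted p = 0.0222) and without ELT3 DMSO replicate 3 (-1.58, adjusted p = 0.0475). For Bid (-0.43 to 0.61), Bak1 (-0.35 to 0.39), Mcl1 (-0.53 to 0.25) and Pmaip1 (-0.50 to 0.38) the 95% confidence intervals of the interaction included 0.

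The named genes whose 4 group means lay nearest to those of Bcl2, each centred on its own mean, were Dpep2, Ramp1, Grpr, Cd200 and Them7. Their Euclidean distances from Bcl2 over the 4 groups were 0.20, 0.29, 0.31, 0.37 and 0.38 log2 units. Dpep2, the nearest, had group means of 9.24 and 11.09 in ELT3 and 7.35 and 8.05 in ELT3-245, in DMSO and rapamycin respectively. Ramp1, a partner of the calcitonin receptor-like receptor, had means of 9.77 and 11.84 in ELT3 and 8.06 and 8.79 in ELT3-245.

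**Figure D4:**
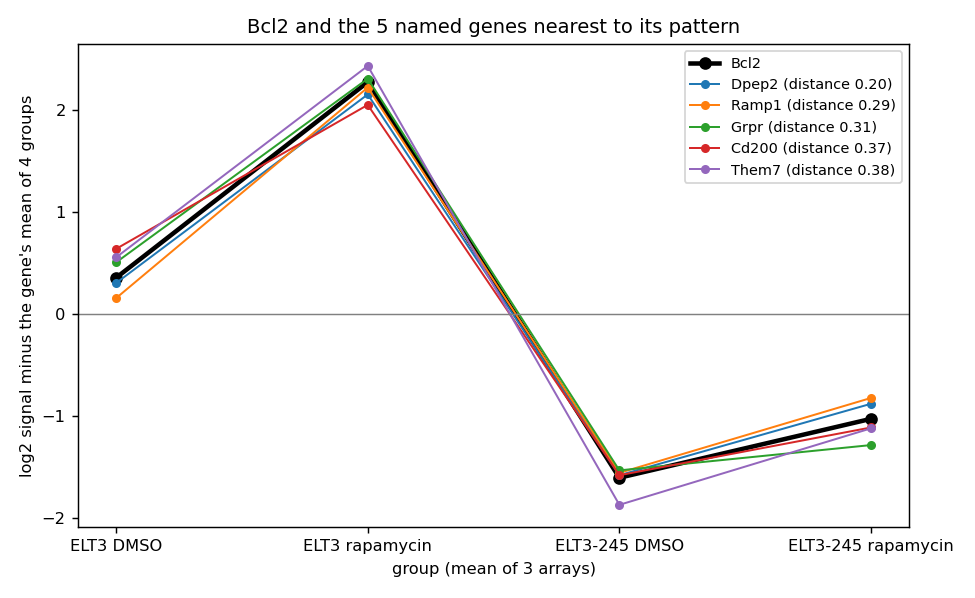
Group means of Bcl2 (black) and of the 5 named genes nearest to its pattern, as log2 signal minus each gene's mean over the 4 groups (vertical axis), by group (horizontal axis, 3 arrays each). Each of these genes was highest in rapamycin-treated ELT3 and lowest in DMSO-treated ELT3-245, with distances from Bcl2 of 0.20 to 0.38.

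Of 27 listed genes that act upstream of the family, 23 were measured, of which 2 were higher and 5 lower in ELT3-245 in DMSO, and 3 were higher and 3 lower in rapamycin. These are 30.4% and 26.1% of the list, where 14.9% and 16.8% of all probe sets were called. Foxo1, a forkhead factor known to act on Bcl2l11, stood at 8.32 ± 0.15 in ELT3 and 10.89 ± 0.06 in ELT3-245 in DMSO (SD, n = 3). In DMSO the lines were thus 2.57 apart (5.93-fold, adjusted p = 9.39e-09). With rapamycin the gap was 3.21 (9.26-fold, adjusted p = 1.14e-09), and in each treatment it was the largest of this list. Foxo1 and Bcl2l11 were both higher in ELT3-245, and the part of Foxo1 in the level of Bcl2l11 was not tested. Dynll2, a dynein light chain that holds the BH3-only protein BMF at the cytoskeleton, was lower in ELT3-245, with a log2 difference of -1.42 in DMSO (adjusted p = 3.4e-06) and -1.98 under the drug (adjusted p = 1.56e-07).

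The kinase gene Pim1, whose product phosphorylates BAD, had the largest rapamycin responses of the list. It went from 11.68 ± 0.17 to 13.08 ± 0.18 in ELT3 and from 9.96 ± 0.27 to 12.78 ± 0.19 in ELT3-245 (SD, n = 3). These rises were 1.40 (2.64-fold, adjusted p = 5.88e-05) and 2.82 (7.04-fold, adjusted p = 6.65e-07). Pim3, a related kinase, rose by 0.68 and 1.41 (adjusted p = 0.0293 and 0.000522), and its ELT3 call was lost without any 1 of the 3 rapamycin-treated ELT3 arrays (0.66 to 0.73) and without ELT3 DMSO replicate 1 or 2 (0.62 and 0.55). Ddit3, the stress factor CHOP, which is known to act on several BH3-only genes, fell by 1.14 in ELT3 and by 1.03 in ELT3-245 (adjusted p = 0.000659 and 0.00202). Foxo3 rose in ELT3 by 0.72 (adjusted p = 0.000509) and Foxo1 in ELT3-245 by 0.91 (adjusted p = 0.000269). Neither was called in the other line, where the group means also rose. Foxo3 went from 12.08 to 12.55 in ELT3-245, and Foxo1 from 8.32 to 8.58 in ELT3. In ELT3 3 of the 23 genes rose and 2 fell (21.7%, against 15.9% of all probe sets), and in ELT3-245 3 rose and 1 fell (17.4%, against 10.6%). The median of the list was -0.03 in ELT3 and -0.11 in ELT3-245.

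Of 15 other listed genes of the BCL2 family, 14 were measured. In ELT3-245, 1 was higher in DMSO, and 1 was higher and 1 lower in rapamycin, which are 7.14% and 14.3% of the list against 14.9% and 16.8% of all probe sets. With rapamycin 2 rose and 2 fell in ELT3 (28.6%, against 15.9% of all probe sets), and 1 rose and 1 fell in ELT3-245 (14.3%, against 10.6%). Bnip3 and Bnip3l encode BH3-like receptors of mitophagy, the removal of mitochondria by autophagy. Bnip3 fell with rapamycin by 0.84 in ELT3 and by 1.21 in ELT3-245 (adjusted p = 0.000268 and 3.05e-05), and Bnip3l rose by 1.28 and 0.89 (adjusted p = 4.25e-06 and 0.000103). Bnip3 was also higher in ELT3-245, by 1.04 with DMSO (2.06-fold, adjusted p = 3.55e-05) and 0.68 with the drug. Bmf, a BH3-only gene at a low signal (4.87 ± 0.37 in DMSO-treated ELT3), rose in ELT3 by 0.78 (adjusted p = 0.00775). In ELT3-245 the difference of Bmf was 0.51 (adjusted p = 0.0795), with no overlap of arrays.

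Downstream of mitochondria, 13 of 15 listed genes of the apoptosome and caspases were measured. Those called between the lines, 3 in DMSO and 2 in rapamycin, were higher in ELT3-245 (23.1% and 15.4% of the list, against 14.9% and 16.8% of all probe sets). With rapamycin 2 rose and 1 fell in ELT3 (23.1%, against 15.9%), and 1 rose and 3 fell in ELT3-245 (30.8%, against 10.6%). Casp6, an executioner caspase, was at 7.21 ± 0.12 in ELT3 and 9.70 ± 0.37 in ELT3-245 in DMSO (SD, n = 3), 2.49 higher (5.62-fold, adjusted p = 7.81e-07). Casp1, the inflammatory caspase, was 2.82 higher with DMSO (7.08-fold, adjusted p = 4.58e-08) and 2.18 higher with the drug. The ELT3 signal of Casp1 lay below the array medians, with means of 5.23 in DMSO and 6.37 in rapamycin. Rapamycin lowered Casp6, Cycs and Casp9 in ELT3-245, which fell by 1.29, 0.92 and 0.82 (adjusted p = 0.000522, 0.000894 and 0.0019). Cycs encodes cytochrome c and Casp9 the caspase that it activates through the apoptosome. In ELT3 the difference of Cycs was -0.54, which passed the test (adjusted p = 0.0158) but lay under 1.5-fold, with no overlap of arrays. Those of Casp6 and Casp9 in ELT3 were 0.24 and -0.33. The interaction of line and treatment did not pass for Cycs (adjusted p = 0.354) or Casp9 (adjusted p = 0.215) and passed for Casp6 (adjusted p = 0.00912).

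Several inhibitor of apoptosis proteins (IAPs) bind caspases, and HTRA2 and DIABLO counter them. Of 7 measured of 10 listed genes, 1 was lower in ELT3-245 in DMSO and 1 was higher and 2 lower in rapamycin (14.3% and 42.9% of the list, against 14.9% and 16.8% of all probe sets). With rapamycin 1 rose and 1 fell in ELT3 (28.6%, against 15.9%), and 1 rose in ELT3-245 (14.3%, against 10.6%). Birc5, which encodes survivin, a protein of dividing cells, fell with rapamycin in ELT3 by 0.98 (1.97-fold, adjusted p = 0.000198), and Xiap rose there by 0.77 (adjusted p = 0.000355). In ELT3-245 neither was called, but both moved the same way without overlap of arrays. Their group means went from 12.74 to 12.30 for Birc5 and from 9.91 to 10.48 for Xiap. Htra2 rose in ELT3-245 by 0.83 (adjusted p = 0.00216). Birc3 was lower in ELT3-245 in DMSO (log2 -0.98, adjusted p = 0.0253), a call lost without ELT3-245 DMSO replicate 1 (-0.86) or ELT3 DMSO replicate 3 (-0.75).

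Of the death receptors and their adaptors, 14 of 15 listed were measured. In ELT3-245, 1 was higher and 4 lower in DMSO, and 3 were higher and 2 lower in rapamycin, which is 35.7% of the list in each treatment against 14.9% and 16.8% of all probe sets. For Tnfrsf21 (death receptor 6) the log2 difference was -2.41 with DMSO, which is 5.32-fold lower (adjusted p = 6.36e-07). With rapamycin Tnfrsf21 was 4.28-fold lower (log2 difference -2.10). Fas differed by -0.80 with DMSO (adjusted p = 0.00278) and by -1.03 with rapamycin (adjusted p = 0.000383), again lower in ELT3-245, at a signal below the median of every array. Among those higher in ELT3-245 in rapamycin, Tnfrsf1a stood at 12.99 against 12.13 in ELT3, and Tnfrsf1b at 11.19 against 10.44. With rapamycin 2 genes of this list rose and 4 fell in ELT3 (42.9%, against 15.9% of all probe sets), and 2 rose and 1 fell in ELT3-245 (21.4%, against 10.6%). Cflar, which encodes FLIP, the inhibitor of caspase 8 activation, rose by 1.34 in ELT3 and 1.26 in ELT3-245 (2.53-fold and 2.40-fold, adjusted p = 6.77e-06 and 1.57e-05). Ripk3, the kinase of necroptosis, fell in ELT3 by 1.56 (adjusted p = 2.1e-06).

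**Figure D5:**
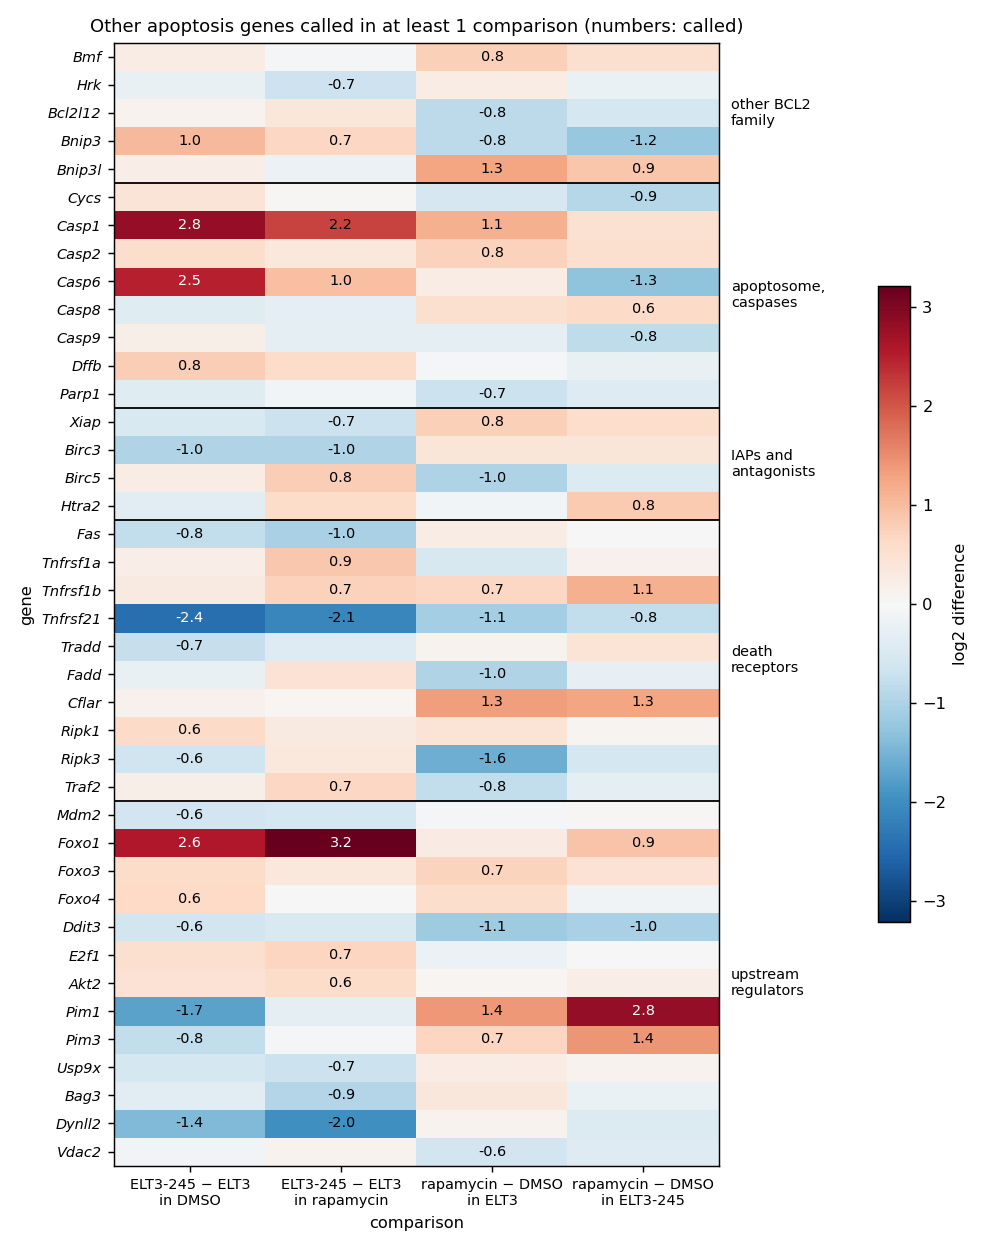
Log2 differences (colour scale, red higher and blue lower) of the 40 listed apoptosis genes outside the 10 members that were called in at least 1 of 4 comparisons (columns), grouped by list (right). Numbers are printed where a gene was called. Foxo1, Casp1 and Casp6 were higher and Tnfrsf21 lower in ELT3-245, and Cflar rose with rapamycin in both lines.

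Markers of fibroblasts moved with the line, but not all in the same direction. All 8 measured lay above the array medians in ELT3-245 and 5 of 8 in ELT3. Their mean level was 13.48 to 13.63 on the ELT3-245 arrays and 10.44 to 10.89 on the ELT3 arrays in DMSO. Lum, Dcn, Fap and Pdgfra had the widest gaps, with Dcn at 12.39 in ELT3-245 and 6.47 in ELT3 in DMSO. Col1a1 was lower in ELT3-245 in DMSO (14.98 against 15.47), and Col1a2 was nearly level (17.30 against 17.24). Of the 7 measured markers of leukocytes and macrophages, 4 lay above the medians in ELT3-245 and 3 in ELT3 in DMSO (mean level 7.58 to 7.78 and 6.54 to 6.79). The T cell marker Cd3e, at 4.82 in ELT3 and 10.78 in ELT3-245, had by far the widest gap among them, Cd14 was lower in ELT3-245 (11.66 against 12.39), and Ptprc, the pan-leukocyte marker, stayed at 4.06 to 4.33 as group means. Of 5 endothelial markers, 1 lay above the medians in ELT3-245 and 0 in ELT3 in DMSO (mean level 6.33 to 6.44 and 5.27 to 5.48). Only Kdr was higher in ELT3-245 in DMSO, at 13.50 against 6.27 in ELT3. Tek (5.10 against 6.67), Pecam1 (5.29 against 5.49), Cdh5 (4.53 against 4.67) and Vwf (3.44 against 3.77) were lower there. Smooth muscle markers differed between the lines in both directions, and their mean level was higher with rapamycin in both lines. The mean level of the 7 was 10.80 to 10.85 on the ELT3 arrays and 10.36 to 10.52 on the ELT3-245 arrays in DMSO, and 11.46 to 11.64 and 10.98 to 11.20 in rapamycin. Tagln had the widest gap between the lines, at 14.78 in ELT3 and 11.69 in ELT3-245 in DMSO and at 16.45 and 14.17 in rapamycin. Acta2 and Cnn1 were also lower in ELT3-245 in both treatments. Des, Myocd, Myh11 and Smtn were higher there in both treatments, with Des at 16.65 against 15.70 and Smtn at 13.49 against 13.36 in DMSO. The part of these shifts in the line differences of Bcl2, Bcl2l11 and Pmaip1, or in the rapamycin responses of the members, was not tested.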

How the data were processed

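Rat Clariom S arrays were hybridised with total RNA of 12 samples. Per the labels, the deposited log2 signals were made by the authors with RMA, which corrects background, normalizes arrays to each other and gives 1 value per probe set, so that small changes may be compressed and a shift common to all genes is removed. For the RMA version and the genome build: not given in the sources used here. Each value column matched the title of 1 sample. Probe sets were named from the platform annotation: 15049 had 1 symbol. The other 8139, with no symbol or with several, were left unnamed and kept in the tests. The highest-mean probe set was to stand for a symbol, and each member had 1.

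All 12 arrays entered a single limma 3.58.1 model (R 4.3.3) with a mean for each of 4 groups, which left 8 residual degrees of freedom beside 3.91 from the prior and gave 5 comparisons, and the script was checked on simulated arrays. With 3 arrays against 3 the smallest two-sided p of an exact permutation test is 0.1, so overlap of arrays is given in its place. Confidence intervals are unadjusted. The precision of each value is limited by 3 arrays. Members and lists were chosen with earlier results of these data known; from each list, up to 4 called genes with the largest difference per comparison could be named, and for the member with the widest range the 5 nearest named genes. Other symbols of the lists were not analysed here. Promoter windows came from RefSeq. Alternatives were quantile normalization, median centring, array weights, robust moderation with an intensity trend, a replicate block, dropping the dimmest 25% of probe sets, only the groups compared, 2-fold or no fold threshold, limma treat, a per-gene unequal-variance test and leaving out each array. Figures used Python 3.11.15 and Matplotlib 3.10.9.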

Additional observations from a re-analysis of the deposited data

Results flagged for a closer look

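The rapamycin response differed between the lines, by the interaction of line and treatment in limma, for 4 of the 71 measured genes of the other apoptosis lists (5.63%, near the 4.23% of all probe sets) and for 0 of the 10 members (2 at an unadjusted p under 0.05, 1 called with an intensity trend and robust moderation). Pim1 rose by 1.41 more on the log2 scale in ELT3-245 than in ELT3 (adjusted p = 0.0057). The log2 response of Casp6 in ELT3-245 minus that in ELT3 was -1.52 (adjusted p = 0.00912), with a fall in ELT3-245 and a difference of 0.24 in ELT3. Ripk3 differed by 0.98 (adjusted p = 0.0066), with a larger fall in ELT3 (-1.56) than its difference in ELT3-245 (-0.58). Htra2 differed by 0.93 (adjusted p = 0.0307), a call that was lost without any of 9 of the 12 arrays (0.82 to 0.97 without them) and with the replicate block (adjusted p = 0.0573), whereas leaving out single arrays did not end those of Pim1, Casp6 and Ripk3. Tested against a 1.5-fold change (limma treat), none of the 4 interactions passed (adjusted p = 0.274 for Pim1 and 0.298 for Casp6, 1 for the others).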

How the results depend on the processing

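No called difference of a member changed sign under any alternative. The number of members called between the lines in DMSO (3) was 0 with the per-gene unequal-variance test and 5 with no fold threshold. The number called with rapamycin in ELT3 (7) was 1 with the unequal-variance test, 2 at 2-fold and 2 with limma treat, and in ELT3-245 (4) it was 1, 1 and 0. For the interaction (0) it was 1 with an intensity trend and robust moderation. Leaving out 1 array at a time gave 3 to 4 members between the lines in each treatment, 4 to 7 with rapamycin in ELT3 (4 without ELT3 DMSO replicate 2), 4 to 5 in ELT3-245 and 0 to 1 for the interaction. Uncalled differences near 0 changed sign. Bid between the lines in rapamycin was -0.04802 and the Bak1 interaction -0.01856 after quantile normalization, and with array weights Bid was -0.01674 and the rapamycin difference of Bad in ELT3 0.06416. Leaving out single arrays gave -0.1667 to 0.05511 for Bax and -0.07935 to 0.1172 for Bad between the lines in DMSO, -0.3936 to 0.09654 for Bbc3 and -0.1791 to 0.1894 for Bid between the lines in rapamycin, -0.1358 to 0.09311 for Bad with rapamycin in ELT3, and interactions of -0.07088 to 0.0803 for Bak1, -0.1877 to 0.03149 for Pmaip1 and -0.1054 to 0.263 for Bid. The cause of these shifts was not tested. Same-numbered samples of different groups had deviations from their group means that correlated at -0.124 to 0.215. Differently numbered samples were not compared, so these values do not settle whether the numbers pair the samples. With the replicate block, 3 members were called between the lines in each treatment, 7 with rapamycin in ELT3, 5 in ELT3-245 and 0 for the interaction, and among the members it added Bcl2l11 with rapamycin in ELT3-245 (0.69, adjusted p = 0.0356). Background correction and slide could not be varied with deposited RMA values, and each member had a single probe set. Among the members, signals near or below the array medians limit Bcl2 in ELT3-245, Bcl2l11 in ELT3, Bad in all groups and Bbc3 in both DMSO groups.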
